A study of Homo sapiens with 9 samples.

Results

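The genes described here encode the proteins of the cytoplasmic ribosome. Members were the protein-coding rows of the count table whose symbol names a large-subunit (RPL, RPLP) or small-subunit (RPS, RPSA) protein and that held at least 10 counts in at least 3 of the 9 libraries. The rule gave 80 genes of the 37351 in the table, 48 of the large and 32 of the small subunit, and it used no difference between groups. RNA was sequenced from LNCaP, a cell line from a human metastatic prostate carcinoma. All cells had first been starved in medium without serum and calcium, and 3 biological replicates each were collected at 0 h and at 12 h and 24 h after recombinant NRG1 at 15 ng/mL, a ligand of the receptor HER3. No library of cells kept in the same medium with buffer alone for 12 h or 24 h was analysed here, so NRG1 and time in serum-free medium cannot be told apart.

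Each ribosome holds a single copy of nearly every ribosomal protein, and the genes are transcribed at high, matched levels in all growing cells. Their mRNAs characteristically start with a cytosine followed by an uninterrupted run of pyrimidines, the terminal oligopyrimidine or TOP motif, through which mTOR signalling, a pathway downstream of HER2 and HER3, controls how strongly they are translated. Several members have a second, divergent gene of the same family, a paralog, and most have processed pseudogenes elsewhere in the genome.

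The libraries held between 47016302 and 60985825 counts. All 9 luminal prostate markers were above 1 CPM, a count scaled to a common library total, and together reached 4710 to 4738 CPM at 0 h, 4765 to 4789 CPM at 12 h and 4441 to 4580 CPM at 24 h, and 2 of them passed as higher and 6 as lower at 24 h against 0 h (edgeR, median log2 change -0.17), while leukocyte and basal epithelial markers reached at most 0.432 and 0.323 CPM. Of the 6 fibroblast markers, 3 were above 1 CPM, with a sum of 24.6 to 28.7 CPM, and of the 4 tested, 1 rose at 12 h and 2 rose at 24 h. The summed endothelial markers were 12.95 to 13.6 CPM at 0 h and 6.89 to 8.06 CPM at 24 h, with 1 of the 2 in the table above 1 CPM, and the part of the luminal, fibroblast and endothelial markers in the results below was not tested. In bulk RNA, fewer cells of a type and less RNA per cell cannot be told apart.

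To show the start sites of the mRNAs described below, promoters were taken from RefSeq (GRCh38.p14), which gave entries for 64 of the 80 members. A TOP run was defined as a C followed by at least 4 pyrimidines. It began exactly at an annotated start in 46 of these 64 genes (71.9%), against 5.14% of all 27305 genes with an entry. Within 15 bases of a start it was found in 59 of the 64 (92.2%), against 48.5% of all genes. The 5 members with an entry but no run in that window were RPL6, RPL10L, RPS4X, RPS27L and RPS29. The following windows hold 15 bases before and 15 bases from the start, and capitals mark the TOP run that lies nearest to it. They set the paralogs RPS27 and RPS27L side by side and then show other members whose mRNA passed a test.
RPS27, chr1:153990747-153990776, plus strand: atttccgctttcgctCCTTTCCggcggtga
RPS27L, chr15:63157463-63157492, minus strand: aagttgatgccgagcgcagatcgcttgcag
RPS24, chr10:78033848-78033877, plus strand: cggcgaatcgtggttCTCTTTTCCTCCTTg
RPS21, chr20:62387088-62387117, plus strand: ggtgactagctgcttCCTTTCTCTCTCgcg
RPL26, chr17:8383179-8383208, minus strand: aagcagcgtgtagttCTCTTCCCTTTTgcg
RPL39, chrX:119791616-119791645, minus strand: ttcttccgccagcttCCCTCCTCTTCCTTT
RPL41, chr12:56116618-56116647, plus strand: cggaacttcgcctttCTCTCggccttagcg
RPL4, chr15:66504841-66504870, minus strand: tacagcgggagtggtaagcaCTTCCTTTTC
In RPS27 the run began at the annotated start, whereas the RPS27L window contained none. In RPL4 the nearest run began 5 bases downstream of the start. Other motifs were searched on both strands from 250 bases before to 50 after the start. CCGGAAG, a core bound by ETS factors, was present in 35.9% of member genes and 12.2% of all genes, RPS27L included. TCTCGCGA was present in 18.8% against 1.37%, and AAGATGGC, the core of the YY1 motif, in 9.38% against 3.52%. These matches are letters in a window, not binding sites.

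The ribosomal protein mRNAs were among the most abundant in LNCaP. Levels of different genes were compared only per length, as counts per base of transcript that add up to the same total in each library (the unit of TPM). With the longest annotated transcript, the members' median was 1300 and the highest were RPL7A (7722 ± 177, SD, n = 9), RPS2 (7348 ± 297) and RPL8 (6284 ± 212.5). With the Ensembl canonical transcript, a length chosen after seeing the data and used from here on, their median was 2296, with an interquartile range of 926.6 to 3590, compared with a median of 7.33 for all tested genes. Of the 80 members, 72 were among the 960 genes that made up the top 5% of all tested genes by level. RPS18 (9720 ± 249.9, SD, n = 9) and RPS2 (9320 ± 374) headed the order, with SD ranges that overlapped. RPL7A (7847 ± 177) and RPL13A (7550 ± 189) followed, also with overlapping SD ranges. The genes of each pair were read in the same libraries, and their order within libraries was not tested. The upper order thus changed with the transcript length used, whereas RPL3L, RPS10 and RPL36A were lowest by either length.

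Several of the lowest members were of 2 kinds. RPL3L, a paralog of RPL3 known from striated muscle, was at 0.829 ± 0.144 (SD, n = 9) on the canonical scale, RPL10L, a paralog of RPL10 known from testis, was at 25.9 ± 3.47, and RPS27L was at 31.9 ± 1.87. The RPS27L value divides by a canonical transcript of 6110 bases, against 352 for RPS27 and 528 for RPL26. A shorter length would raise it. Another 5 had over 40% of the canonical transcript in exons of an annotated readthrough or overlapping gene on the same strand, and whether reads in shared exons were counted for both genes, for 1 or for neither is not given in the sources used here. In GENCODE 44, 84.0% of the canonical RPS10 transcript lay in exons of RPS10-NUDT3, 43.8% of RPL36A in RPL36A-HNRNPH2 and 96.9% of RPL17 in RPL17-C18orf32. For RPL26, 65.3% lay in exons of a gene without a symbol. RPL22 (11.2%), RPS15A (9.90%) and RPL13A (2.66%) shared less. Members of this kind ranged from 7.15 (RPS10) to 484.7 (RPL26) per length, whereas the 72 members outside this group and the 3 paralogs ranged from 151.4 to 9720. The ranges overlapped, since RPL22 (151.4) and RPL14 (357.7), which are of neither kind, lay below RPL26. The overlapping partners themselves held at most 43 counts in all 9 libraries together, against 992 for RPS10 and 60570 for RPL26. The levels of these 5 are therefore uncertain.

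**Figure D1:**
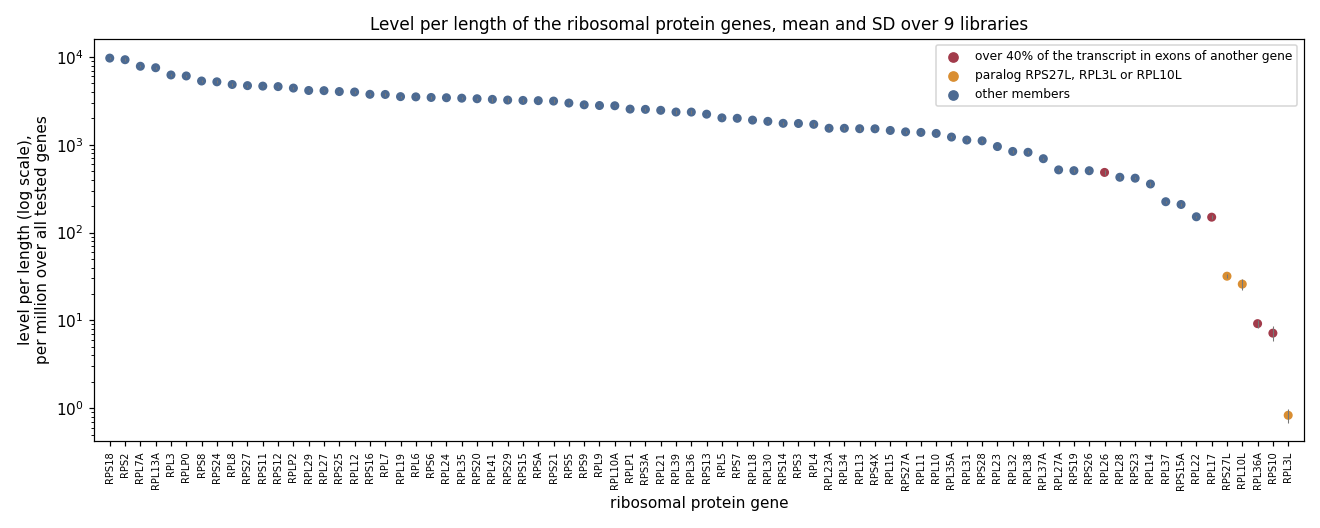
Level per length of 78 of the ribosomal protein genes on a log axis, counts per base of the canonical transcript scaled to the same total per library, as mean and SD over the 9 libraries. Members with over 40% of the transcript in exons of another gene on the same strand (red) and the paralogs RPS27L, RPL3L and RPL10L (orange) lie between 0.829 for RPL3L and 484.7 for RPL26, and the lowest of the other members is at 151.4.

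Near-identical copies are a further limit on single members. A transcript sharing at least 95% identity over at least 150 bases was found for 61 members, and the table held 656 pseudogene rows named after 76 of them. These rows summed to a median of 0.123% of the parent gene's own counts. The share was above 5% for 5 members, namely RPL41 (5.49%), RPS2 (11.04%), RPL9 (15.2%), RPL36A (17.7%) and RPS10, whose 8 pseudogene rows held 943% of its own counts. Shares by name leave out copies that carry other names. Copies found by sequence held 4493 counts for RPL36A, against 1651 of its own. They held 5353 against 21838 for RPL17 and 2810 against 992 for RPS10. Over all members, the named pseudogenes took 0.107% ± 0.00302 of the counts at 0 h and 0.102% ± 0.00292 at 24 h (SD, n = 3). The share of RPS10, RPL36A or RPL17 reads assigned to a copy cannot be read from this table.

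Summed over all members, the ribosomal protein mRNAs took 9.05%, 9.14% and 9.03% of all counts in the 0 h libraries, 9.04%, 9.19% and 8.93% at 12 h, and 9.29%, 9.16% and 9.09% at 24 h. The 3 groups overlapped, with means of 9.07% ± 0.0625, 9.05% ± 0.128 and 9.18% ± 0.102 (SD, n = 3). Large-subunit genes took 5.61%, 5.66% and 5.61% at 0 h, 5.62%, 5.70% and 5.55% at 12 h, and 5.79%, 5.72% and 5.67% at 24 h. The 24 h libraries were all above the 0 h libraries and overlapped those of 12 h. Small-subunit genes took 3.44%, 3.48% and 3.41% at 0 h, 3.42%, 3.49% and 3.39% at 12 h, and 3.51%, 3.44% and 3.43% at 24 h, with overlap of all groups. The ratio of large-subunit to small-subunit counts was 1.63, 1.627 and 1.644 at 0 h, 1.646, 1.633 and 1.638 at 12 h, and 1.652, 1.663 and 1.654 at 24 h. It was higher in each 24 h library than in the other 6, and no test was made of these sums.

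Single members moved little at 12 h. With edgeR's quasi-likelihood test and Benjamini-Hochberg adjustment over all 19250 tested genes, 4 of the 80 members (5%) had an adjusted p of at most 0.05, 3 higher and 1 lower, whereas 18.7% of all tested genes did (10.6% higher, 8.16% lower). None of the 80 reached a fold change of 1.5 as well, against 2.37% of all tested genes, while 13 members had an unadjusted p under 0.05 (all tested genes, 29.6%) and DESeq2 called 5. A positive fitted change was found for 43 members (53.8%), compared with 48.1% of all tested genes. The median log2 fold change of the members was 0.0042 (range -0.14 to 0.27) and that of all tested genes -0.0084, and the SD over members was 0.0596 against 0.368. The 95% interval of the fold change lay within 1.2-fold of no change for 75 members (93.8%), compared with 41% of all tested genes. This difference goes with precision as well as with size, since the median standard error was 0.032 for members and 0.084 for all tested genes. The 5 members with a wider interval were RPL14, RPL10L, RPL36A, RPL3L and RPS10.

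The comparison of 24 h with 0 h gave a similar picture. Of the 80 members, 6 (7.5%) passed, 4 higher and 2 lower, against 21.1% of all tested genes (11.6% higher, 9.48% lower). Again none combined this with a fold change of 1.5 (all tested genes, 3.31%), 10 had an unadjusted p under 0.05 (all tested genes, 31.2%) and DESeq2 called 7. The median was 0.019 (range -0.16 to 0.20) against -0.0068 for all tested genes, and 58 members (72.5%) had a positive fitted change compared with 48.4% of all tested genes. The members share the same libraries, so these signs are not independent. Per library, the members' median log2 level against the 0 h mean was -0.0285, 0.0121 and 0.0084 at 0 h. At 24 h it was 0.0513, 0.0231 and -0.0074, which overlapped 0 h. Without 24 h replicate 1 the median fold change was 0.011. Intervals within 1.2-fold were found for 76 members (95%), compared with 39.9%. Medians were 0.029 for the large and 0.011 for the small subunit.

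Between 12 h and 24 h, 6 members (7.5%) passed, 5 higher and 1 lower, against 6.08% of all tested genes (3.03% higher, 3.05% lower), so the share called was close to the background. The fold change of 1.5 was reached by none (all tested genes, 0.452%), an unadjusted p under 0.05 was found for 12 (all tested genes, 18.9%) and DESeq2 also called 6. The median was 0.013, with a range from -0.14 to 0.18, 47 members (58.8%) had a positive fitted change against 50.3% of all tested genes, and 76 intervals (95%) lay within 1.2-fold, against 46.6%. Both this comparison and the one with 0 h use the same 24 h libraries.

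These counts depended on how GC content and transcript length were treated. When a smooth term for both was removed from each library, 11 members passed at 12 h (10 higher, 1 lower) and 13 at 24 h (12 higher, 1 lower), beside 20.4% and 22% of all tested genes, and 4 passed between 12 h and 24 h, beside 5.9%. The median log2 fold change then moved to 0.038 at 12 h and 0.056 at 24 h. The counts also varied when single libraries were left out, as did the share of all tested genes, given in brackets. At 12 h, no member passed by edgeR without 12 h replicate 1 (14%), against 2 without 0 h replicate 2 (16.5%). At 24 h, 2 passed without 24 h replicate 1 (16.9%) and 3 without 24 h replicate 2 (16.7%). Between 12 h and 24 h, 1 passed without 12 h replicate 2 (3.45%) or 3 (4.07%). In the same comparison 2 passed without 24 h replicate 1 (4.62%) and 3 without 24 h replicate 2 (4.4%) or 3 (3.83%).

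**Figure D2:**
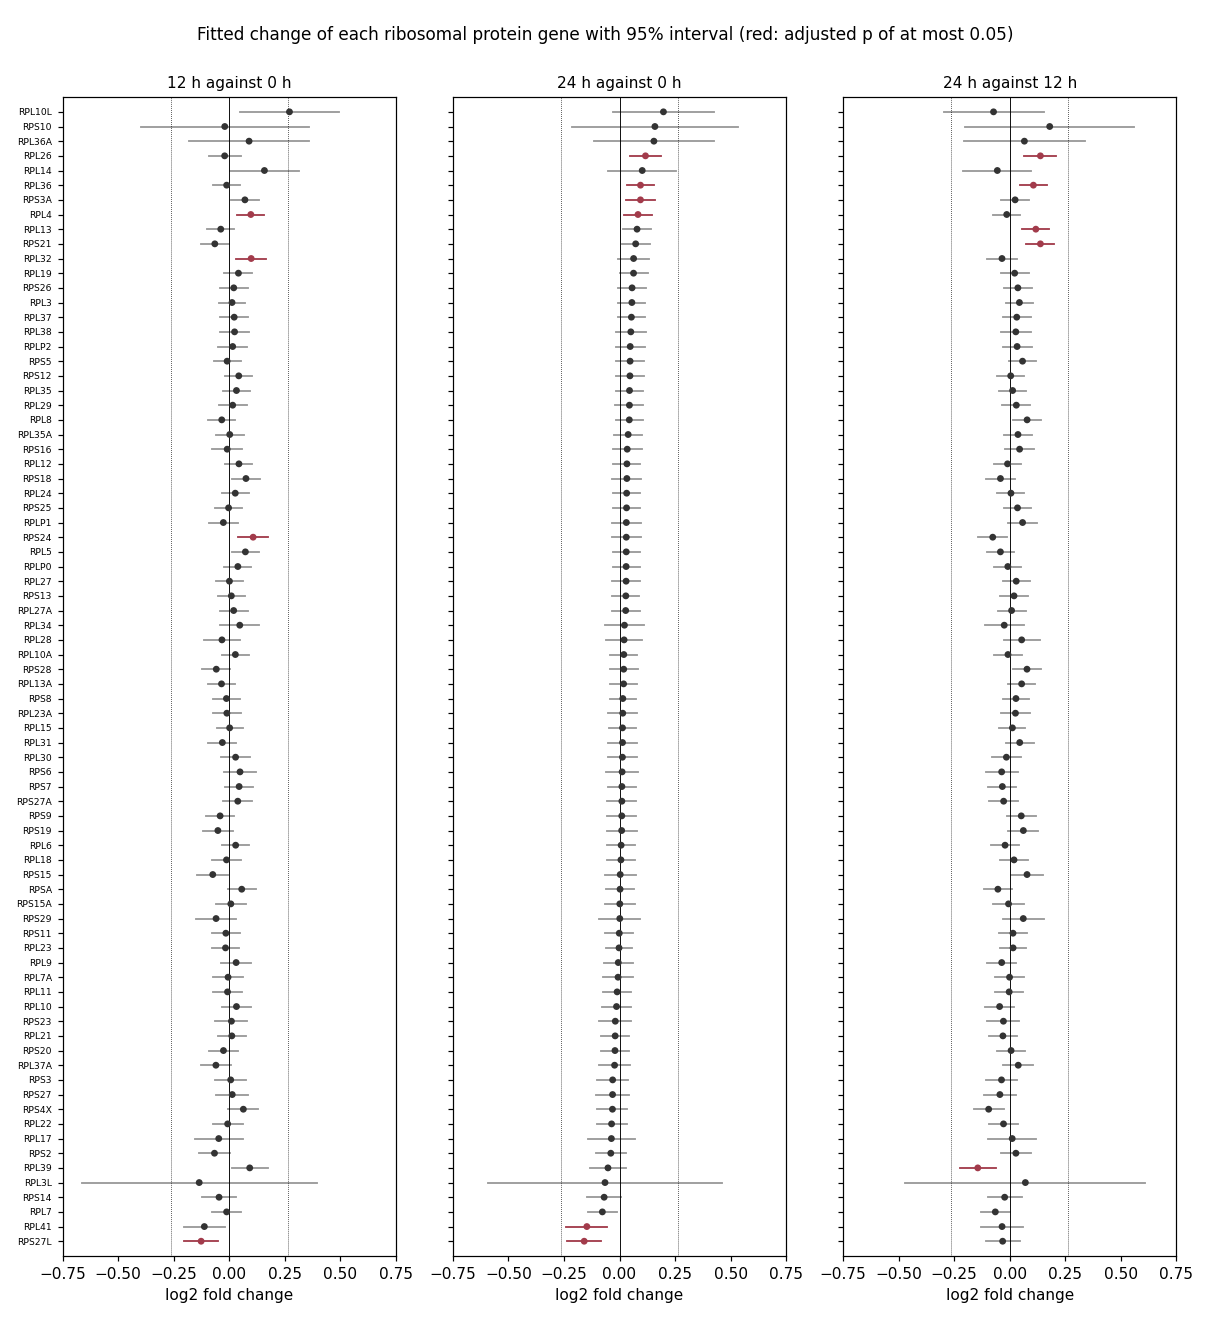
Fitted log2 fold change (points) with 95% interval (lines) of 78 of the ribosomal protein genes in the 3 comparisons, ordered by the change at 24 h, with dotted lines at 1.2-fold and genes with an adjusted p of at most 0.05 in red. Nearly all intervals stay inside the dotted lines, which 75 of all 80 members did at 12 h and 76 in each of the other comparisons, and RPS27L stands at the lower end at 24 h.

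The member that fell at both times was RPS27L, a p53-inducible paralog of the small-subunit protein RPS27. It was at 98.9, 98.9 and 105.5 CPM at 0 h, at 88.3, 96 and 93.5 CPM at 12 h and at 89.1, 92.2 and 90.3 CPM at 24 h. Each treated library lay below all 0 h libraries. The log2 change was -0.13 at 12 h (SE 0.037, edgeR adjusted p = 0.0134), a fall of 8.42% with a 95% interval from -13.1% to -3.48%. At 24 h it was -0.16 (SE 0.037, edgeR adjusted p = 0.00156), with an interval from -15.04% to -5.61%. The call at 24 h was kept under all 21 alternatives, with adjusted p between 4e-04 and 0.0342. The call at 12 h was lost without 0 h replicate 3 (-0.09) or without 12 h replicate 1 (-0.09).

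RPS27 itself was at 789.6, 809.9 and 838.9 CPM at 0 h, at 806.9, 861.7 and 792.0 CPM at 12 h and at 837.3, 790.7 and 757.8 CPM at 24 h, with overlapping groups and intervals of -0.06 to 0.09 and -0.10 to 0.04 on the log2 scale. Within each library, RPS27L counts equalled 12.5%, 12.2% and 12.6% of RPS27 counts at 0 h, 10.9%, 11.1% and 11.8% at 12 h, and 10.6%, 11.7% and 11.9% at 24 h. All 6 treated values were below the 3 values at 0 h. In both comparisons the exact permutation test gave a two-sided p of 0.1, the smallest that 3 against 3 libraries allow (0.233 after adjustment over 21 such tests). The ratio is one of counts, not of molecules, since the transcripts differ in length.

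Of the other small-subunit members, RPS24, mutated in some families with Diamond-Blackfan anaemia, was at 1296, 1270 and 1376 CPM at 0 h, 1461, 1407 and 1376 CPM at 12 h and 1369, 1319 and 1337 CPM at 24 h. It rose at 12 h by 7.72% (log2 0.11, SE 0.033, edgeR adjusted p = 0.0173), although its highest 0 h library met its lowest 12 h library. This call was lost without 0 h replicate 2 (0.08) or 12 h replicate 1 (0.09). RPS3A was at 1055, 1029 and 1009 CPM at 0 h, 1122, 1085 and 1040 CPM at 12 h and 1090, 1112 and 1099 CPM at 24 h. Its 24 h libraries lay above all 0 h libraries, a rise of 6.74% (log2 0.09, edgeR adjusted p = 0.0291). Without 0 h replicate 2 (0.09), 0 h replicate 3 (0.08), 24 h replicate 1 (0.10) or 24 h replicate 2 (0.09) it did not pass. RPS21 had 557.5, 544.9 and 538.6 CPM at 0 h, 506.3, 528.6 and 533.7 CPM at 12 h and 587.6, 565.2 and 572.9 CPM at 24 h. From 12 h to 24 h it rose by 10.02% (log2 0.14, SE 0.031, edgeR adjusted p = 0.00417), with no overlap of these groups. It missed the threshold without 12 h replicate 1 (0.12, adjusted p = 0.0505).

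Among large-subunit members, RPL4, a protein with an extension that reaches the exit tunnel, passed in both comparisons with 0 h. Its values were 2162, 2178 and 2228 CPM at 0 h, 2396, 2331 and 2298 CPM at 12 h and 2355, 2333 and 2270 CPM at 24 h. All treated libraries lay above the 0 h libraries, by 6.95% at 12 h (log2 0.10, edgeR adjusted p = 0.0192) and by 5.92% at 24 h (log2 0.08, adjusted p = 0.0443). At 12 h the call was lost without 12 h replicate 1 (0.08). At 24 h it was lost without 0 h replicate 1 (0.08) or 2 (0.08), 12 h replicate 3 (0.09), or 24 h replicate 1 (0.07) or 2 (0.08), and also with the replicate number as a block, with the 6 compared libraries alone and with all genes that had a count. Over the 21 alternatives the adjusted p at 24 h ran from 0.0135 to 0.159. RPL32 was at 801.1, 811.4 and 862.5 CPM at 0 h, 897.4, 874.2 and 878.1 CPM at 12 h and 887.5, 878.1 and 820.3 CPM at 24 h. It was higher in every 12 h library than at 0 h, by 7.06% (log2 0.10, edgeR adjusted p = 0.0351), and its 24 h values overlapped both groups. Its call did not survive the loss of 0 h replicate 1 (0.08) or 2 (0.09) or of any 12 h library (0.09, 0.11 and 0.11).

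RPL26 and RPL36 rose at 24 h against both earlier times. RPL26, which sits beside the exit tunnel, was at 124.0, 122.1 and 118.9 CPM at 0 h, 125.9, 116.1 and 117.8 CPM at 12 h and 134.0, 130.6 and 131.3 CPM at 24 h. The 24 h libraries were above the other 6, by 8.42% against 0 h (log2 0.12, edgeR adjusted p = 0.0141) and 10.01% against 12 h (0.14, adjusted p = 0.0129). The first call was lost without 0 h replicate 3 (0.10) or 24 h replicate 1 (0.11), and the second without 12 h replicate 2 (0.12) or 3 (0.12) or 24 h replicate 1 (0.13). RPL26 is also one of the 5 members with over 40% of the transcript in exons of another gene. RPL36 was at 679.9, 694.5 and 676.6 CPM at 0 h, 691.5, 667.3 and 675.4 CPM at 12 h and 725.0, 725.9 and 738.5 CPM at 24 h. Its 24 h libraries were likewise above the other 6, by 6.75% against 0 h (log2 0.09, edgeR adjusted p = 0.0202) and 7.63% against 12 h (0.11, adjusted p = 0.0252). The former was lost without 0 h replicate 3 (0.09) or 24 h replicate 3 (0.09). The latter was lost without 12 h replicate 2 (0.10) or 3 (0.10) or any 24 h library (0.11, 0.11 and 0.10), and with the correction for GC content and length (0.09).

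RPL13 passed in the comparison of 24 h with 12 h. It was at 1604, 1647 and 1571 CPM at 0 h, 1604, 1552 and 1539 CPM at 12 h and 1703, 1693 and 1696 CPM at 24 h, a rise of 8.46% from 12 h (log2 0.12, edgeR adjusted p = 0.013). All 24 h libraries were above those of the other times. The call was lost without 12 h replicate 2 (0.11) or 3 (0.10) or 24 h replicate 1 (0.11). Against 0 h the 24 h difference of RPL13 was 0.08 (edgeR adjusted p = 0.0584), and it passed in 8 of the 21 alternatives, DESeq2 included, with adjusted p from 0.0213 to 0.176.

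RPL41 and RPL39, which encode very small proteins, were the large-subunit members that fell. RPL41 was at 1126, 1217 and 1107 CPM at 0 h, 1000, 1153 and 1038 CPM at 12 h and 1052, 1047 and 1016 CPM at 24 h. At 24 h it had fallen by 9.70% without overlap (log2 -0.15, SE 0.044, edgeR adjusted p = 0.0218). Correction for GC content and length reduced this change to -0.06 (adjusted p = 0.501), and it was lost without 0 h replicate 1 (-0.16) or 2 (-0.10) or any 24 h library (-0.15, -0.15 and -0.13). RPL39, which lines the exit tunnel, was at 431.9, 418.9 and 482.1 CPM at 0 h, 458.5, 488.0 and 474.2 CPM at 12 h and 439.0, 427.1 and 419.4 CPM at 24 h. It fell by 9.51% between 12 h and 24 h (log2 -0.14, SE 0.039, edgeR adjusted p = 0.0258) and did not differ detectably from 0 h at 24 h (-0.05, adjusted p = 0.406). The fall was lost without 12 h replicate 2 (-0.12) or 3 (-0.14) or 24 h replicate 2 (-0.14) or 3 (-0.13). Of the 12 members that passed in any comparison, 11 had a promoter entry, of which 8 held a TOP run at an annotated start, 10 held one within the window and RPS27L held none. Among all 64 members with an entry, 46 (71.9%) held a run at a start and 59 (92.2%) within the window.

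**Figure D3:**
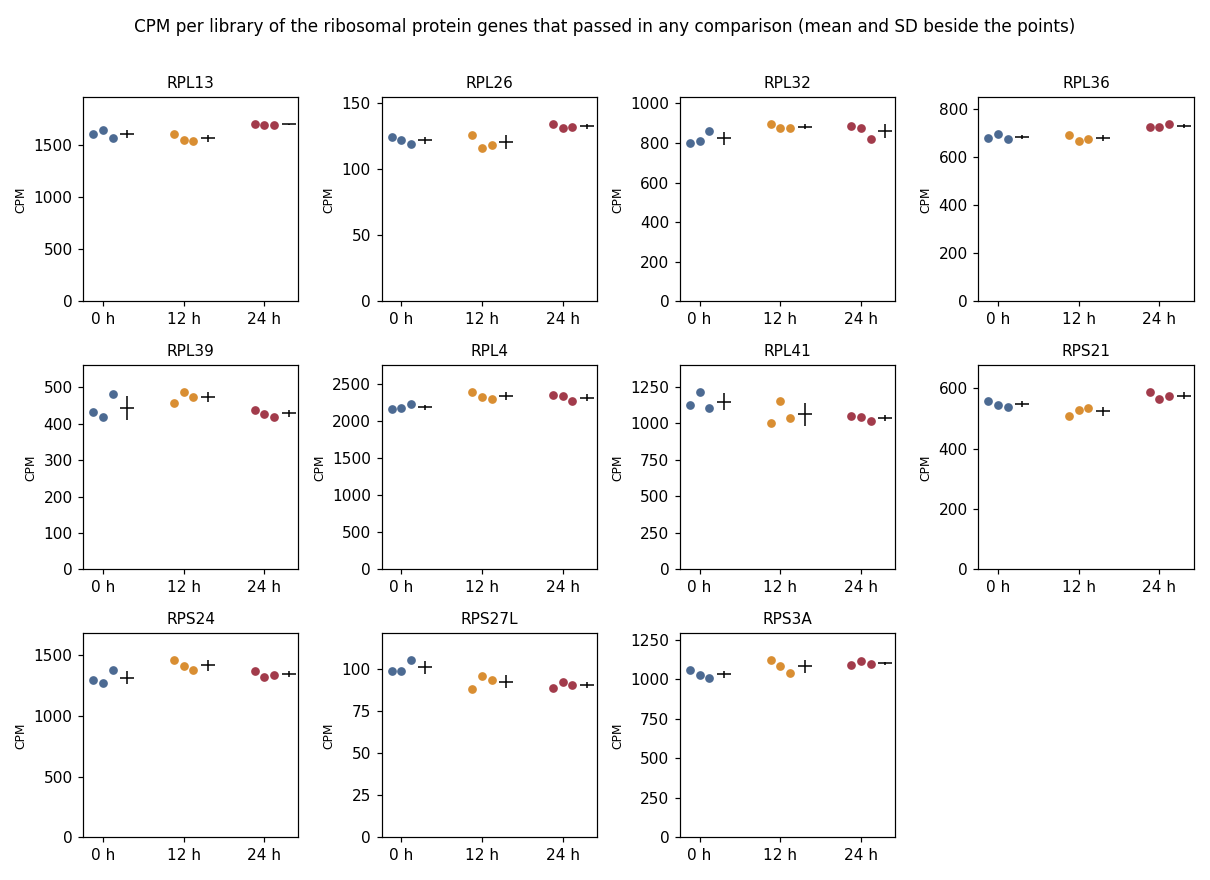
CPM in each library of 11 ribosomal protein genes that passed in any comparison, at 0 h, 12 h and 24 h, with the group mean and SD (n = 3) beside the points and axes from 0. The changes are small beside the level of each gene, from a fall of 10.4% in RPS27L at 24 h to a rise of 10.02% in RPS21 between 12 h and 24 h.

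The remaining members named by rule did not pass in any comparison by the edgeR fit of all 9 libraries. RPLP0, RPLP1 and RPLP2 form the stalk that recruits translation factors. RPLP0 was at 3181, 3236 and 3249 CPM at 0 h, 3344, 3354 and 3228 CPM at 12 h and 3308, 3337 and 3221 CPM at 24 h, with 95% intervals of -0.02 to 0.10 and -0.03 to 0.09 (log2). Its groups overlapped at both times. For RPLP1 the log2 changes were -0.03 at 12 h and 0.03 at 24 h, and for RPLP2 they were 0.02 and 0.05. RPLP2 passed at 24 h in 2 of the 21 alternatives and at 12 h in 1, all with the correction for GC content and length. RPS6, the substrate of the S6 kinases, was at 2282, 2322 and 2222 CPM at 0 h, 2283, 2406 and 2369 CPM at 12 h and 2462, 2209 and 2210 CPM at 24 h, with intervals of -0.02 to 0.12 and -0.06 to 0.08. RPL5 and RPL11, which together bind the p53 regulator MDM2, had changes of 0.07 and -0.01 at 12 h, with adjusted p of 0.0907 and 0.908 by edgeR. RPL5 was at 972.9, 988.2 and 1010 CPM at 0 h and at 1034, 1064 and 1026 CPM at 12 h, without overlap. Its 12 h change passed in 3 of the 21 alternatives, DESeq2 and the correction for GC content and length included, with adjusted p from 0.00462 to 0.28.

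RPS19 and RPS14, known from Diamond-Blackfan anaemia and the 5q deletion syndrome, had 24 h changes of 0.01 and -0.07 (log2, edgeR adjusted p = 0.887 and 0.209). RPSA, also known as a laminin receptor precursor, changed by 0.06 at 12 h and 0.0023 at 24 h, RPS27A, made as a fusion with ubiquitin, by 0.04 and 0.01, and RPL3 by 0.01 and 0.06. None of these was past the threshold. RPS4X was at 1155, 1152 and 1090 CPM at 12 h and 1085, 1067 and 1029 CPM at 24 h, a difference of -0.10 (edgeR adjusted p = 0.0876). That difference passed in 3 of the 21 alternatives. RPL10 and RPL22 stayed within 0.05 of 0 on the log2 scale in all 3 comparisons.

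Precision was lower for 6 members under 50 CPM, among them RPL3L, RPL10L, RPL17, RPL36A and RPS10, and for RPL14. RPL14 was at 1044, 1193 and 1272 CPM at 0 h, 1310, 1330 and 1276 CPM at 12 h and 1304, 1269 and 1193 CPM at 24 h. Its 12 h interval ran from 0.0048 to 0.31 (edgeR adjusted p = 0.156), the upper end being the highest bound among the 74 members above 50 CPM. RPL10L was at 8.05, 8.11 and 9.95 CPM at 0 h, 9.65, 10.1 and 11.8 CPM at 12 h and 10.8, 10.98 and 8.16 CPM at 24 h. Its fitted change of 0.27 at 12 h (interval 0.05 to 0.50, edgeR adjusted p = 0.0891) was the highest of any member and did not pass. In 6 of the 21 alternatives it did, with adjusted p from 0.0121 to 0.319. RPL3L, at 0.68 to 1.17 CPM, had an interval from -0.66 to 0.39 at 12 h. RPS10 and RPL36A had 24 h changes of 0.16 and 0.15 with intervals from -0.22 to 0.53 and from -0.11 to 0.42. For RPL14, RPL10L, RPL3L, RPS10 and RPL36A the intervals included changes larger than 1.2-fold at 12 h.

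Proteins of the same ribosome that the naming rule left out, and paralogs, formed a list of 7. Of these, 2 rose at 12 h, 3 rose at 24 h, none fell, and none passed between 12 h and 24 h. Of all tested genes, 10.6% rose at 12 h and 11.6% at 24 h. Their median was 0.08 at both times. RPL22L1, a paralog of RPL22, was at 297.7, 302.6 and 291.2 CPM at 0 h, 325.7, 315.8 and 315.6 CPM at 12 h and 330.1, 330.0 and 346.3 CPM at 24 h. It rose by 0.10 at 12 h (edgeR adjusted p = 0.0186) and 0.17 at 24 h (adjusted p = 5.97e-05) on the log2 scale. The 12 h call was lost without 0 h replicate 3 or without 12 h replicate 1. RPL7L1, which acts in ribosome assembly, was at 232.1, 232.1 and 232.7 CPM at 0 h, 265.1, 264.0 and 254.7 CPM at 12 h and 241.6, 251.4 and 253.6 CPM at 24 h, with rises of 0.17 (adjusted p = 0.000112) and 0.10 (adjusted p = 0.0203). The 24 h call of RPL7L1 was lost in 3 of the 21 alternatives, namely with all genes that had a count and without 24 h replicate 2 or 3. The scaffold protein RACK1 rose by 0.09 at 24 h (adjusted p = 0.0486), a call lost in 8 of the 21 alternatives, the replicate block and the 6 compared libraries alone included (adjusted p from 0.00498 to 0.197). FAU, made as a fusion with a ubiquitin-like protein, changed by 0.03 at 12 h, RPL36AL by -0.0011 and RPL26L1 by 0.10 (adjusted p = 0.0833), and none of these passed.

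Against their partners among the members, RPL22L1 counts equalled 199.4%, 189.9% and 192.3% of RPL22 at 0 h, 214.1%, 205.9% and 207.3% at 12 h and 219.2%, 223.9% and 229.5% at 24 h. No groups overlapped, and each of the 3 exact permutation tests gave p = 0.1, the smallest allowed. RPL26L1 equalled 40.6%, 42.7% and 43.9% of RPL26 at 0 h, 46.7%, 45.7% and 46.1% at 12 h and 39.9%, 42.5% and 41.5% at 24 h, highest at 12 h in all 3 libraries. RPL7L1 equalled 10.3%, 10.1% and 9.97% of RPL7 at 0 h and 11.04% to 12.2% at 12 h. RPL10L remained under 1% of RPL10. These ratios are of counts, not of molecules, and the level of RPL26 is among those called uncertain above.

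Lists of related genes were described by the same fit. For this list and those that follow, the shares of all tested genes are the background. These were 10.6% higher and 8.16% lower at 12 h, and 11.6% and 9.48% at 24 h. Between the times they were 3.03% and 3.05%. Of the 77 mitochondrial ribosomal proteins, which are nuclear genes for a separate ribosome, 27 rose and 2 fell at 12 h and 18 rose and 3 fell at 24 h, with medians of 0.09 and 0.05. Their share of all counts was 0.466%, 0.473% and 0.463% at 0 h, 0.492%, 0.495% and 0.484% at 12 h and 0.485%, 0.483% and 0.485% at 24 h, without overlap with 0 h. MRPS18A (0.29) and MRPL50 (0.27) rose most at 12 h, MRPL2 (0.31) and MRPL18 (-0.27) changed most at 24 h, and between 12 h and 24 h, where 1 rose and 3 fell, MRPL41 (0.19) and MRPL39 (-0.18) did. The call of MRPL2 (edgeR adjusted p = 0.048) was lost in 10 of the 21 alternatives, DESeq2 and the replicate block included, with adjusted p from 0.00921 to 0.178. Over the same libraries, 3 cytoplasmic members rose and 1 fell at 12 h. The counts of both lists stand side by side here, and their difference was not tested.

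Translation factors and other mRNAs known for TOP motifs had 18 genes in the table. At 12 h 4 rose and none fell, at 24 h 2 rose and 2 fell, and between the times 1 rose and 2 fell, with medians from 0.0001 to 0.03. EIF3H, a subunit of an initiation factor, was at 294.2, 295.6 and 290.3 CPM at 0 h, 332.6, 321.2 and 317.0 CPM at 12 h and 364.4, 353.3 and 339.2 CPM at 24 h. It rose by 0.14 and then 0.26 against 0 h (edgeR adjusted p = 0.00133 and 6.21e-08). EEF1B2, an elongation factor subunit, rose by 0.12 and 0.13 and the nucleolar protein NPM1 by 0.13 at 12 h, with NPM1 (-0.10) and HNRNPA1 (-0.12) lower at 24 h than at 12 h. Of 12 noncoding hosts of small nucleolar RNAs, 2 rose and 1 fell at 12 h, 4 rose at 24 h and 2 rose between the times. SNHG16 (0.27) and SNHG32 (-0.28) changed most at 12 h, SNHG12 at 24 h (0.59), and DANCR rose by 0.12 between 12 h and 24 h. The calls of SNHG32 at 12 h and of NPM1, HNRNPA1 and DANCR between the times were lost with the correction for GC content and length. That of SNHG32 (edgeR adjusted p = 0.0419) was lost in 8 of the 21 alternatives, the 6 compared libraries alone included.

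Of 9 chaperones that escort single ribosomal proteins or act on precursor ribosomes, 2 rose at 12 h, and at 24 h 1 rose and 2 fell. GRWD1, an escort of RPL3, rose by 0.23 and 0.19 and LTV1, an assembly factor of the small subunit, by 0.18 at 12 h, while NVL (-0.31) and the RPS26 escort TSR2 (-0.19) fell at 24 h. Both were also lower at 24 h than at 12 h (-0.22 and -0.16). The 12 h call of LTV1 was lost in 4 of the 21 alternatives, each a fit without 1 library. Of 10 genes for S6 kinases and control of TOP mRNAs, none passed at 12 h by edgeR, against 3 higher and 1 lower at 24 h and as many between 12 h and 24 h. RPS6KA3, the kinase RSK2, was at 137.4, 129.2 and 134.2 CPM at 0 h, 127.8, 125.3 and 130.7 CPM at 12 h and 93.0, 95.7 and 95.2 CPM at 24 h. It fell by 0.50 at 24 h on the log2 scale (adjusted p = 7.56e-14). EIF4EBP1, the mTOR-regulated inhibitor of cap-dependent translation, rose by 0.13 at 24 h, and MTOR rose by 0.14 between 12 h and 24 h, a call lost with the correction for GC content and length. Of the 143 ribosomal protein pseudogenes tested, 1 rose and 2 fell at 12 h, 2 rose at 24 h and 1 fell between the times.

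**Figure D4:**
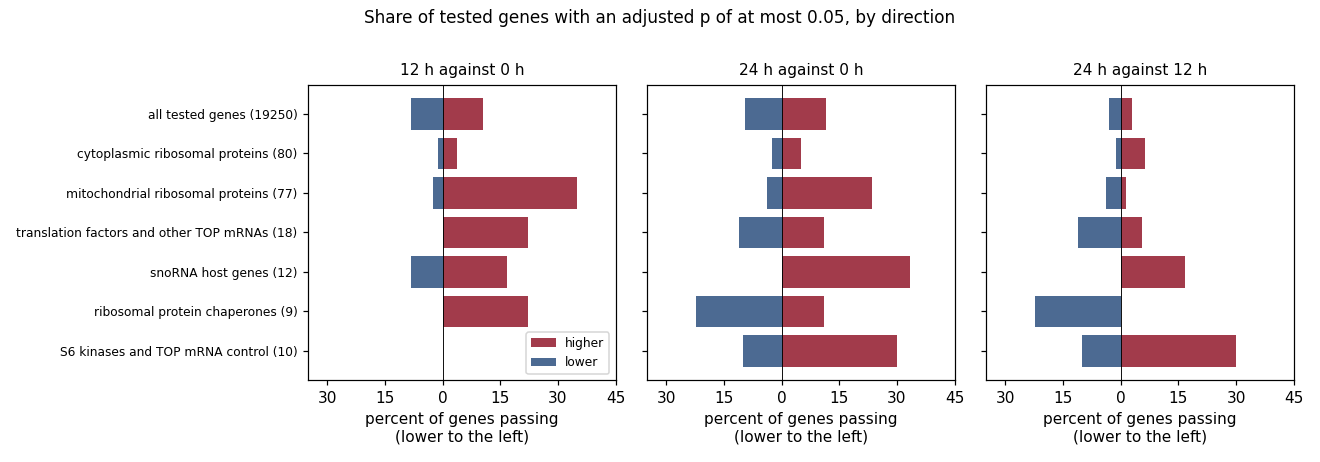
Share of the tested genes of each list, in percent, that had an adjusted p of at most 0.05 in each comparison, with higher genes to the right and lower genes to the left of 0 and the number of tested genes in brackets. Cytoplasmic ribosomal proteins (5% at 12 h, 7.5% at 24 h) lie under the share of all tested genes (18.7% and 21.1%) in the comparisons with 0 h.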

How the data were processed

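Total RNA of 9 LNCaP cultures was sequenced as mRNA libraries. Per the study's methods, the authors trimmed reads with Cutadapt, checked them with FastQC 0.11.9, used STAR for alignment to GRCh38.p13 and featureCounts for gene counts. The deposited values are raw counts, not normalized. The strand setting and the treatment of reads shared by several genes or places are not given in the sources used here. The methods state that 1 LNCaP replicate at time 0 was left out for quality, without naming the treatment. The study's figure legends give 3 replicates for the NRG1 series, and in places fewer for its other series, treated with asporin. All 3 NRG1 libraries at 0 h were used here. A further 14 columns of the table were empty and left aside. Between 47016302 and 60985825 counts per library set the precision, for counting error only.

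Groups came from sample titles. Genes kept by filterByExpr (19250) were scaled by TMM. The robust quasi-likelihood test of edgeR 4.0.16 (R 4.3.3) was fitted on the 9 libraries together, without covariates. A gene passed at a Benjamini-Hochberg adjusted p of at most 0.05. Fold changes of at least 1.5, the study's threshold, were given beside it. SE and 95% intervals were derived from the F statistic, CPM uses TMM-scaled library sizes. The fit was tested on simulated data. Replicate pairs differed by 3.10 to 9.03 times the counting noise (chi-square per degree of freedom). Exon overlap, copies (blastn 2.17.0) and lengths came from GENCODE 44, promoters from RefSeq. Alternatives were DESeq2 1.42.0, other scalings and filters, a replicate block, corrections for GC content and length, pseudogene counts added, and each library left out.

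Members, lists and tests were chosen with earlier results of these data known. Named genes were a fixed set of members, up to 5 passing members per direction and comparison, the 3 highest and lowest per length, the 7 left out by the naming rule, and 2 passing genes of each other list. RPL39L, also in the fixed set, was not analysed here. Some genes that these rules name are counted but not reported by name.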

Additional observations from a re-analysis of the deposited data

Results flagged for a closer look

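The effects at 12 h and at 24 h share the 0 h libraries, and their difference was tested directly as 24 h against 12 h by edgeR. Members named here that passed on the log2 scale were RPS21 (0.14), RPL26 (0.14), RPL13 (0.12) and RPL36 (0.11), higher at 24 h, and RPL39 (-0.14), lower. In these genes the 12 h and 24 h libraries did not overlap. Since the same libraries picked the genes, this is no separate support. Each call except that of RPS21 was lost in at least 3 of the 9 fits without 1 library, and that of RPS21 in 1, without 12 h replicate 1 (0.12). Of the related genes named, it passed with higher values at 24 h for SNHG12 (0.34), MRPL41 (0.19), MTOR (0.14), EIF4EBP1 (0.13), EIF3H (0.12) and DANCR (0.12). It passed with lower values for RPS6KA3 (-0.43), NVL (-0.22), MRPL39 (-0.18), TSR2 (-0.16), HNRNPA1 (-0.12) and NPM1 (-0.10). The calls of MRPL41, RPS6KA3 and NVL were kept in all 21 alternatives. Those of EIF3H, DANCR and TSR2 were lost in 4, of SNHG12 and MRPL39 in 5, of MTOR, EIF4EBP1 and HNRNPA1 in 6 and of NPM1 in 7. For EIF4EBP1 the correction for GC content and length was among these. MRPL41 (-0.18 at 12 h, 0.01 at 24 h) and MRPL39 (0.21 and 0.03) passed at 12 h against 0 h and did not pass at 24 h against 0 h. The 12 h change of MRPL41 was -0.08 with the correction for GC content and length (adjusted p = 0.122) and no longer passed.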

How the results depend on the processing

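The number of members passing (4 at 12 h, 6 at 24 h, 6 between the times) was 0 in each comparison with a fold change of 1.5. With all genes that had a count, 7 passed at 12 h (9.16% of all genes tested). With the correction for GC content and length, 11 and 13 passed at 12 h and 24 h, and the members' median log2 fold change was 0.038 and 0.056. The replicate block together with that correction gave 14 and 15, with medians of 0.038 and 0.055, beside 21% and 22.5% of all tested genes. The replicate block alone gave 5, 5 and 6, beside 19.1%, 21.2% and 6.56%. Same-numbered libraries did not pair: their deviations from group means correlated at -0.04 to 0.03, differently numbered ones at -0.06 to 0.05, and 2 of 9 libraries correlated best with their own number. Leaving out 1 library gave 0 to 6 members at 12 h, 2 to 7 at 24 h and 1 to 7 between the times. In the same fits 13.8% to 18.7%, 16.7% to 20.3% and 3.45% to 7.38% of all tested genes passed. The share of counts was 9.62%, 9.58% and 9.69% at 0, 12 and 24 h without mitochondrially encoded genes, and 9.18% at 0 h and 9.29% at 24 h with pseudogene rows added. Counting members without the 5 with over 40% of the transcript in shared exons, chosen after seeing the data, gave 4, 5 and 5. Canonical in place of longest transcript length, also chosen after seeing the data, moved the members' median level from 1300 to 2296. Of the 58 calls among 186 named results, 24 were kept in all 21 alternatives, RPS27L at 24 h among them, 23 results without a call gained one in some, and none reversed. The cause of these shifts was not tested.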
